A study of Hordeum vulgare with 12 samples.

Results

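The accession by drought interaction in barley leaf is, gene by gene, the drought effect in accession BCS24 minus the drought effect in accession BCS8. It was computed on the log2 scale as (BCS24 drought minus BCS24 control) minus (BCS8 drought minus BCS8 control). A positive value means that the drought effect was the more positive one in BCS24, and a negative value that it was the more positive one in BCS8. The rule kept genes with at least 1 FPKM (fragments per kilobase of transcript, scaled to the depth of the library) in at least 3 of the 12 libraries, which gave 17342 of the 30157 genes in the table. At the edge of that rule, 494 genes reached 1 FPKM in exactly 3 libraries and 654 in exactly 2, with a median mean level of 0.804 and 0.647 FPKM. The 4 groups were BCS24 under drought, BCS24 control, BCS8 under drought and BCS8 control, each with 3 leaf libraries, and the label "ck" was read as control. How drought was applied, the age of the seedlings and whether replicates came from separate plants are stated by no source used here, so p-values measure only the spread between these libraries. The study set a genome-wide association scan beside these transcriptomes to look for genes that respond to drought in seedlings.

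Leaves that lose water raise abscisic acid (ABA), a hormone made from carotenoids by 9-cis-epoxycarotenoid dioxygenases, which is read by soluble receptors that inhibit protein phosphatases 2C and so release kinases. Stomata close, photosynthesis slows, and starch stored in the chloroplast can be broken down to maltose and other sugars. Older leaves may enter senescence, the ordered dismantling of chlorophyll and chloroplast proteins, in which NAC transcription factors take part. An interaction asks whether accessions differ in these responses. It carries the spread of all 4 groups, so it is less precise than the drought effect in either accession.

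Libraries held 49553836 to 61212440 counts. The 39 leaf mesophyll markers of the table (chlorophyll a-b binding and Rubisco small subunit genes), 38 of them tested, took 3.61 to 11.4% of counts. The search for root and seed markers matched 1 gene of the table, which did not pass the filter on low values. BCS8 drought replicate 3 stood apart: its log2 values correlated at 0.940 and 0.919 with the other drought libraries of BCS8 and at 0.952 with BCS8 control replicate 2. BCS24 control replicate 1 correlated at 0.948 to 0.967 with the drought libraries of BCS24 and at 0.961 and 0.962 with the other controls. The share of counts in rRNA genes, in libraries selected for poly(A) tails, moved in opposite directions in the accessions. It was 0.202, 0.658 and 0.599% in BCS24 drought, against 0.531, 2.07 and 1.45% in BCS24 control. In BCS8 it was 1.79, 2.22 and 0.918% under drought, against 0.795, 0.997 and 0.520% in control. The groups overlapped in each accession, through BCS24 control 1 and through BCS8 drought 3. This share has the same contrast as the interaction, so values with the share as a covariate are given beside the results, and its part in them was not tested.

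At an adjusted p below 0.05, edgeR's quasi-likelihood test called 0 of 17342 genes (0.00%), and the lowest adjusted p was 0.0604. At an unadjusted p below 0.05 it had 2166 genes (12.5%), 932 with a positive difference (5.37%) and 1234 with a negative difference (7.12%). Other tools called more on the same counts. DESeq2 called 629 genes (3.63%), 212 positive (1.22%) and 417 negative (2.40%), and limma-voom with library quality weights called 517 (2.98%), 242 positive and 275 negative. These sets had 354 genes in common, 56.3% of those of DESeq2 and 68.5% of those of limma-voom. Those weights ran from 0.334 for BCS8 drought 3 to 7.04 for BCS24 control 3. Genes of rRNA were 89 of the 417 negative DESeq2 calls and 80 of the 275 negative limma-voom calls. With rRNA genes left out, edgeR had 897 positive and 1088 negative genes at an unadjusted p below 0.05. Without BCS8 drought 3, edgeR called 31 genes, 3 positive and 28 negative. The drought effects that make up the interaction had 460 edgeR calls in BCS24 (2.65%), 243 higher (1.40%) and 217 lower (1.25%) under drought, and 266 in BCS8 (1.53%), 173 higher (0.998%) and 93 lower (0.536%).

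The median standard error of the interaction was 0.29 on the log2 scale, against 0.205 for the drought effect in BCS24 and 0.205 for that in BCS8. For 9251 genes (53.3%) the 95% interval of the interaction lay within a log2 value of 1 of 0 on each side. A difference of at least 1 in size was estimated for 2028 genes, 514 positive and 1514 negative. The genes tested include 235 rRNA genes, 233 of them negative, with a median of −2.13. The median over all genes tested was −0.01, with 48.9% of genes positive. No interaction value below passed the edgeR threshold, and the values are given as estimates with standard errors.

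The genes described first are the 12 positive and 12 negative ones with the smallest p-values and a mean of at least 5 FPKM in their highest group. Their drought effects had opposite signs in the accessions for 18 of the 24, a pattern that choosing by the difference of the effects favours. The drought effect passed the edgeR threshold for 17 of them in BCS24 and for 6 in BCS8, against 2.65 and 1.53% of all genes. DESeq2 called the interaction for 23 of them, and limma-voom with quality weights for 24, against 3.63 and 2.98% of all genes. The remaining gene, HORVU2Hr1G081950, had no adjusted p in DESeq2. All these calls rest on the counts by which the genes were chosen, so the choice favours them and they add no support. Levels are given as FPKM of each library in the order of the replicates, and differences as log2 values from the edgeR fit.

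**Figure D1:**
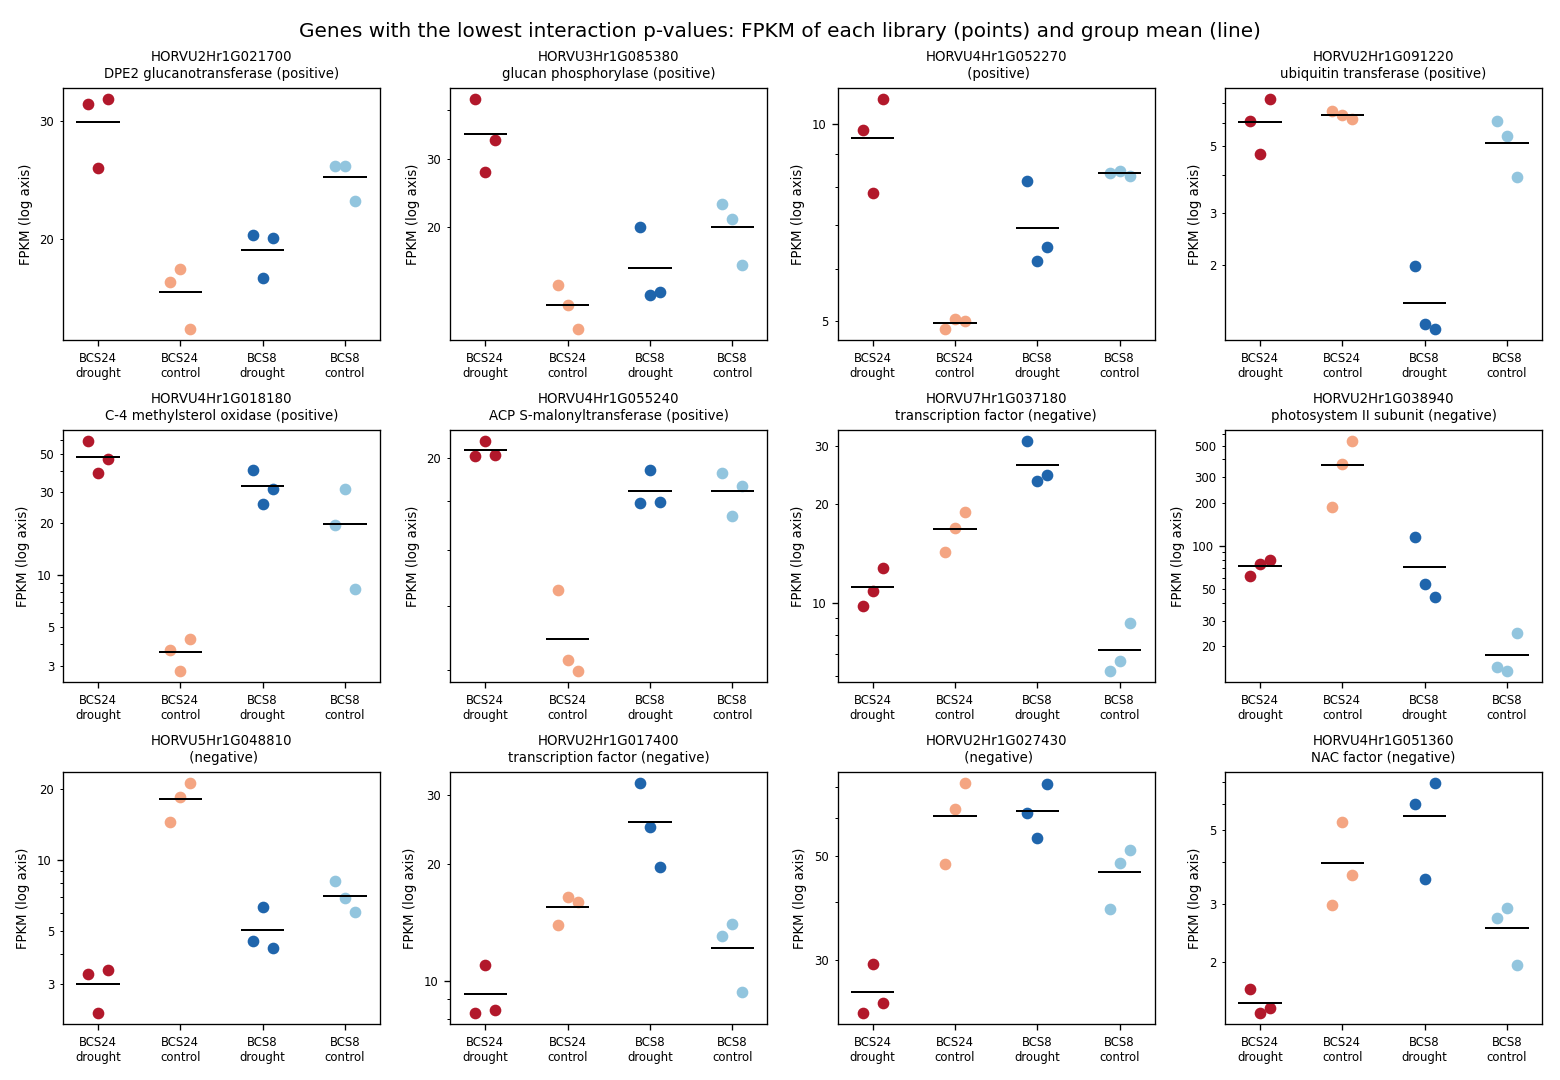
FPKM on a log axis in the 12 libraries for the 6 positive (first 6 panels) and 6 negative (last 6 panels) genes with the smallest interaction p-values; points are libraries and lines are means of 3. DPE2 (HORVU2Hr1G021700) was at 25.5 to 32.3 FPKM in BCS24 drought and 14.7 to 18.0 in BCS24 control, but at 17.5 to 20.2 in BCS8 drought and 22.8 to 25.7 in BCS8 control.

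Of the 12 positive genes, 4 code for enzymes of starch and sugar handling by their annotation. DPE2 (HORVU2Hr1G021700, chromosome 2H, 62238738 to 62246301, plus strand) codes for the cytosolic glucanotransferase that takes up maltose leaving the chloroplast in starch breakdown. Its level was 31.8, 25.5 and 32.3 FPKM in BCS24 drought, against 17.2, 18.0 and 14.7 FPKM in BCS24 control. In BCS8 it was 20.2, 17.5 and 20.03 FPKM under drought, against 25.7, 25.6 and 22.8 FPKM in control. The drought libraries were thus all above the controls in BCS24 and all below them in BCS8. DPE2 rose in BCS24 by a log2 value of 0.97 ± 0.13 (SE, edgeR adjusted p = 0.00897) and had −0.31 ± 0.12 in BCS8. The interaction was 1.28 ± 0.18, with a 95% interval of 0.89 to 1.67 (edgeR adjusted p = 0.107, DESeq2 2.53e-07), and 1.19 with the rRNA share as a covariate. BCS24 exceeded BCS8 by 0.70 ± 0.12 under drought and was below it by a log2 value of −0.58 ± 0.12 in control.

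Alpha-1,4 glucan phosphorylase HORVU3Hr1G085380 (chromosome 3H, 612632349 to 612643686, plus strand), an enzyme that cleaves glucans to glucose 1-phosphate, stood at 42.8, 27.8 and 33.5 FPKM in BCS24 drought, against 14.2, 12.6 and 10.96 FPKM in BCS24 control. Its BCS8 levels were 20.1, 13.4 and 13.7 FPKM under drought, against 23.0, 21.0 and 16.0 FPKM in control. The groups were apart in BCS24 and overlapped in BCS8. The interaction was 1.88 ± 0.29 (edgeR adjusted p = 0.107), from a rise of 1.59 ± 0.21 in BCS24 and −0.30 ± 0.20 in BCS8. A second gene with this description, HORVU3Hr1G085420, lies on the same chromosome and was added after its values were seen. It had an interaction of 1.51 ± 0.34, with levels of 92.2 to 93.3 FPKM in BCS24 drought and 26.3 to 45.8 FPKM in BCS24 control.

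Glucose-6-phosphate isomerase HORVU5Hr1G069850, which joins fructose and glucose phosphates on the path to starch, had 8.81, 6.91 and 6.19 FPKM in BCS24 drought, against 5.47, 4.57 and 4.54 FPKM in BCS24 control. In BCS8 the order was the opposite, with 5.86, 4.51 and 4.94 FPKM under drought, against 8.09, 6.38 and 6.71 FPKM in control. Neither accession had overlapping groups, and the interaction was 1.13 ± 0.21. UTP-glucose-1-phosphate uridylyltransferase HORVU5Hr1G087810, which makes the UDP-glucose used for sucrose and cell walls, showed the same layout at a smaller size. It had 43.5, 40.2 and 38.2 FPKM in BCS24 drought, against 32.8, 29.3 and 29.0 FPKM in BCS24 control, and 33.0, 33.6 and 36.6 FPKM in BCS8 drought, against 37.5, 40.6 and 38.8 FPKM in BCS8 control. Its interaction was 0.68 ± 0.13.

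On the negative side, a gene annotated as fructan beta-fructosidase (HORVU2Hr1G109120), an enzyme type that releases fructose from the fructans stored by cereals, had 1.87, 2.40 and 1.18 FPKM in BCS24 drought, against 4.27, 14.9 and 9.31 FPKM in BCS24 control. Under drought BCS8 had 8.34, 6.45 and 2.98 FPKM, against 2.02, 1.76 and 3.51 FPKM in control. BCS8 drought 3, the library that stood apart, was the one within the range of the controls. The interaction was −3.58 ± 0.71, and −1.79 with the rRNA share as a covariate.

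Next came genes of membrane lipids. A pair of neighbours on chromosome 4H annotated as C-4 methylsterol oxidases, enzymes of plant sterol synthesis, had the largest positive estimates of the 24 genes. HORVU4Hr1G018180 (81636475 to 81638197, minus strand) had 59.5, 38.9 and 46.6 FPKM in BCS24 drought, against 3.71, 2.79 and 4.29 FPKM in BCS24 control. In BCS8 it had 40.7, 25.7 and 31.6 FPKM under drought, against 19.4, 31.5 and 8.35 FPKM in control. The BCS24 control libraries were all below the other 9 libraries. The gene rose in BCS24 (3.86 ± 0.43, edgeR adjusted p = 0.00505), was at 0.78 ± 0.38 in BCS8, and had an interaction of 3.08 ± 0.55. The accession difference was 0.63 ± 0.38 under drought and −2.45 ± 0.41 in control. HORVU4Hr1G018150 (81552157 to 81566437, plus strand) had an interaction of 2.85 ± 0.57, with means of 302 ± 66 and 24.9 ± 3.9 FPKM (SD, n = 3) in BCS24 drought and control. No source used here says how reads shared by genes this alike were counted, so the split between the 2 genes is uncertain.

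Of the fatty acid synthesis enzymes in the chloroplast, a 3-oxoacyl-[acyl-carrier-protein] synthase (HORVU2Hr1G030950) had 98.9, 91.2 and 97.4 FPKM in BCS24 drought, against 54.5, 42.3 and 44.1 FPKM in BCS24 control. Its BCS8 groups overlapped, at 73.1, 56.8 and 56.7 FPKM under drought and 76.9, 59.1 and 54.4 FPKM in control, and the interaction was 1.14 ± 0.22. The malonyltransferase that loads the acyl carrier protein (HORVU4Hr1G055240) had 20.1, 20.8 and 20.1 FPKM in BCS24 drought, against 14.5, 12.3 and 11.96 FPKM in BCS24 control. In BCS8 it had 17.9, 19.4 and 18.0 FPKM under drought, against 19.3, 17.4 and 18.7 FPKM in control, for an interaction of 0.74 ± 0.13. The BCS24 drought libraries had the highest levels of all 12 in both genes. Over the 72 tested genes of fatty acid synthesis the median interaction was 0.08, and 0.06 with the rRNA share as a covariate. At an unadjusted p below 0.05, 10 were positive (13.9%, against 5.37% of all genes) and 2 negative (2.78%, against 7.12%).

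A photosystem gene was among the 12 negative ones. HORVU2Hr1G038940 (chromosome 2H, 185335580 to 185337673, plus strand) carries the orthology number of PsbR, a small photosystem II protein that helps the oxygen-evolving complex to assemble. It had 61.1, 74.1 and 79.9 FPKM in BCS24 drought, against 187, 373 and 538 FPKM in BCS24 control. In BCS8 it had 116, 53.7 and 43.7 FPKM under drought, against 14.2, 13.4 and 24.5 FPKM in control. The groups did not overlap in either accession, and the directions were opposite. The gene fell in BCS24 (−2.22 ± 0.46, edgeR adjusted p = 0.0393) and was at 2.07 ± 0.46 in BCS8 (edgeR adjusted p = 0.0566), for an interaction of −4.29 ± 0.65. BCS24 exceeded BCS8 by 4.38 ± 0.51 in control, and the difference under drought was 0.09 ± 0.44.

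The 12 negative genes included 4 transcription factors. In the list of sequence-specific DNA binding factors, 24 of 647 tested genes were positive (3.71%) and 64 negative (9.89%, against 7.12% of all genes) at an unadjusted p below 0.05, with a median of −0.06. HORVU7Hr1G037180 (chromosome 7H, 88671189 to 88673490, minus strand), annotated to responses to cold, water deprivation and ethylene, had the lowest p-value of all genes. It had 9.80, 10.9 and 12.7 FPKM in BCS24 drought, against 14.3, 16.9 and 18.9 FPKM in BCS24 control. In BCS8 it had 31.1, 23.5 and 24.4 FPKM under drought, against 6.22, 6.65 and 8.69 FPKM in control. The gene rose in BCS8 (1.91 ± 0.19, edgeR adjusted p = 0.0104) and was at −0.46 ± 0.19 in BCS24. The interaction was −2.37 ± 0.27, with a 95% interval of −2.96 to −1.78 (edgeR adjusted p = 0.0604, DESeq2 8.59e-12), and −2.25 with the rRNA share as a covariate. It passed the threshold in 9 of 25 alternatives, with values of −2.67 to −2.11. The accession difference was −1.17 ± 0.19 under drought and 1.201 ± 0.19 in control.

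HORVU2Hr1G017400, annotated to leaf senescence and ABA, had 8.27, 10.98 and 8.43 FPKM in BCS24 drought, against 14.0, 16.4 and 16.0 FPKM in BCS24 control, and 32.3, 24.8 and 19.6 FPKM in BCS8 drought, against 13.02, 14.0 and 9.36 FPKM in BCS8 control. It rose in BCS8 (1.12 ± 0.20, edgeR adjusted p = 0.0276), and the interaction was −1.74 ± 0.28. The NAC factor HORVU4Hr1G051360, annotated to the promotion of chlorophyll breakdown, had 1.66, 1.41 and 1.46 FPKM in BCS24 drought, against 2.97, 5.30 and 3.65 FPKM in BCS24 control. Its levels were 6.003, 3.56 and 6.93 FPKM in BCS8 drought, against 2.72, 2.92 and 1.96 FPKM in BCS8 control, with an interaction of −2.43 ± 0.41. In both genes drought lay below control in all libraries of BCS24 and above it in all libraries of BCS8. Of the 76 tested genes of the leaf senescence list, which holds HORVU2Hr1G017400 but not the NAC factor, 2 were positive and 7 negative (9.21%, against 7.12% of all genes) at an unadjusted p below 0.05. The list median was −0.05, and 0.14 with the rRNA share as a covariate.

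The other factor, HORVU5Hr1G014170, is annotated to the cellular response to ABA. It had 37.1, 32.7 and 36.8 FPKM in BCS24 drought, against 126, 186 and 161 FPKM in BCS24 control, and fell there by 2.02 ± 0.20 (edgeR adjusted p = 0.00374). The BCS8 groups overlapped at lower levels, with 24.1, 17.2 and 17.0 FPKM under drought and 32.1, 22.1 and 24.9 FPKM in control. The interaction was −1.63 ± 0.28, and the accession difference was 0.94 ± 0.20 under drought and 2.57 ± 0.21 in control. HORVU2Hr1G027430, a plasma membrane gene annotated to water deprivation and ABA, had 23.2, 29.5 and 24.3 FPKM in BCS24 drought, against 48.1, 62.7 and 71.3 FPKM in BCS24 control. Its BCS8 levels of 61.5, 54.5 and 70.9 FPKM under drought lay above the 38.6, 48.3 and 51.4 FPKM in control, for an interaction of −1.59 ± 0.26.

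A further 3 positive genes fell in BCS8. The gene HORVU2Hr1G091220, annotated as a ubiquitin-protein transferase of the endoplasmic reticulum and to water deprivation, had 1.98, 1.27 and 1.23 FPKM in BCS8 drought, against 6.06, 5.41 and 3.95 FPKM in BCS8 control. It stood at 6.09, 4.73 and 7.19 FPKM in BCS24 drought and 6.54, 6.35 and 6.18 FPKM in BCS24 control. It fell in BCS8 by 1.73 ± 0.23 (edgeR adjusted p = 0.0158) and had 0.05 ± 0.22 in BCS24, for an interaction of 1.78 ± 0.32. A gene annotated as an exonuclease (HORVU4Hr1G083140) fell in BCS8 by 1.56 ± 0.28, with 1.73 to 3.20 FPKM under drought and 5.42 to 9.15 FPKM in control, for an interaction of 1.96 ± 0.38. A glycoside hydrolase annotated to xyloglucan metabolism (HORVU3Hr1G038060) fell in BCS8 by 0.70 ± 0.13, with 239, 239 and 259 FPKM under drought and 424, 455 and 359 FPKM in control. Its BCS24 groups overlapped at 424 to 475 FPKM under drought and 404 to 453 FPKM in control, for an interaction of 0.88 ± 0.18.

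The other named genes were 1 positive and 5 negative. HORVU4Hr1G052270, annotated to the chloroplast stroma and to circadian rhythm, had 7.84 to 10.9 FPKM in BCS24 drought and 4.86 to 5.03 FPKM in BCS24 control, with BCS8 at 6.16 to 8.17 FPKM under drought and 8.33 to 8.46 FPKM in control (1.29 ± 0.23). A diacylglycerol acyltransferase of plastid lipid droplets annotated to phytol metabolism (HORVU5Hr1G077120), phytol being the tail of chlorophyll, had 0.746, 0.497 and 0.709 FPKM in BCS24 drought, against 1.39, 1.08 and 1.59 FPKM in BCS24 control. It had 12.3, 4.85 and 2.54 FPKM in BCS8 drought, against 0.965, 0.652 and 1.11 FPKM in BCS8 control, and its interaction was −3.81 ± 0.70. The protein kinase gene HORVU2Hr1G081950 was at 7.52, 5.36 and 7.47 FPKM in BCS8 drought, against 0.107, 0.272 and 0.0648 FPKM in BCS8 control. In BCS24 it had 0.0659, 0 and 0.0704 FPKM under drought, against 0.0969, 2.95 and 0.157 FPKM in control, so BCS24 control 2 alone sets its level there. The interaction of this kinase gene was −9.90, and −6.89 without BCS24 control 2. The next gene by identifier number, HORVU2Hr1G081960, had 0, 8.39 and 0 FPKM in BCS8 drought, against 19.2, 14.8 and 17.7 FPKM in BCS8 control. It had 10.2 FPKM in BCS24 control 2, against 16.7 to 18.6 FPKM in the other BCS24 libraries. Whether reads were split between it and the kinase gene was not tested. HORVU2Hr1G076320, with no annotation, had 0, 0.115 and 0.0826 FPKM in BCS24 drought, against 2.597, 2.22 and 5.13 FPKM in BCS24 control, while its BCS8 groups overlapped at 2.31 to 16.0 FPKM under drought and 3.19 to 5.03 FPKM in control. Drought counts of 0, 8 and 6 in BCS24 make the size of its estimate, −6.67 ± 1.14, depend on the prior count of the fit. HORVU5Hr1G048810, of no known function, fell in BCS24 by 2.46 ± 0.23 and had an interaction of −2.03 ± 0.31. A heavy metal ATPase gene (HORVU7Hr1G108890) had an interaction of −0.80 ± 0.15, with 3.92 to 4.31 FPKM in BCS24 drought and 5.92 to 6.52 FPKM in BCS24 control.

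The interaction is also the difference between the accession contrasts under drought and in control. For 10 of the 24 genes the accessions were closer under drought than in control. With the rRNA share as a covariate each of the 24 genes kept the sign of its interaction. None was called, at edgeR adjusted p-values of 0.91 to 0.95, and the covariate moves with the groups. Choosing the genes by p on these same counts favours a kept sign, so it adds no support.

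**Figure D2:**
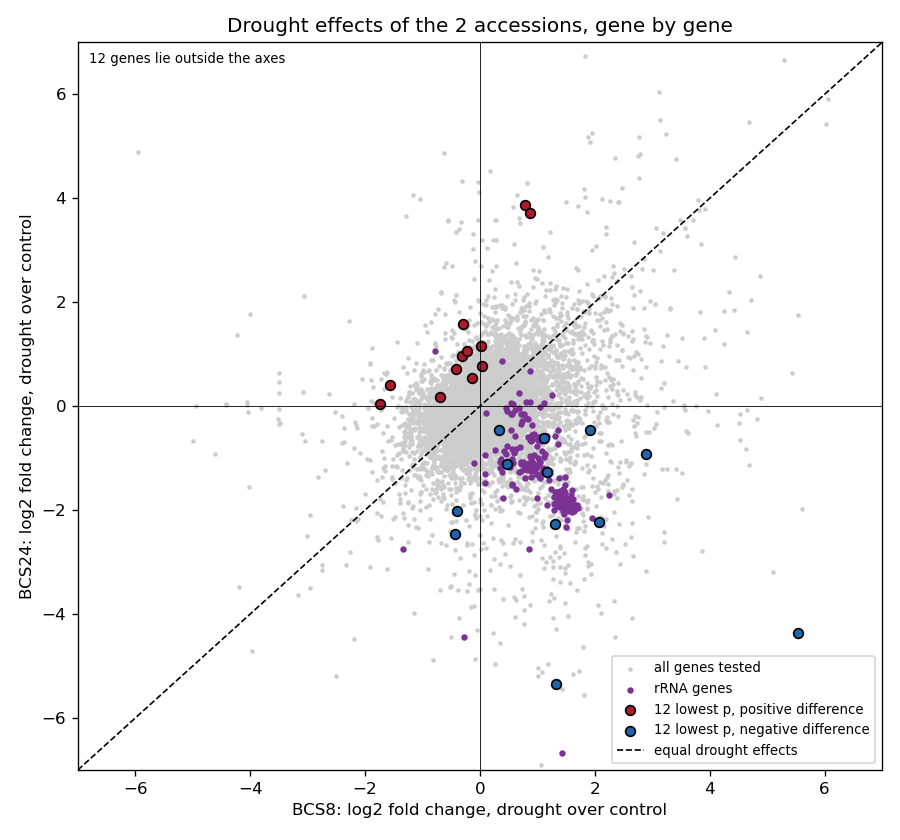
Drought effect (log2, drought over control) of each of the 17342 genes in BCS24 (vertical axis) and in BCS8 (horizontal axis); both axes span 7 on each side of 0, and 12 genes lie outside. Red and blue points are the 12 genes of each sign with the smallest interaction p-values, purple points the 235 rRNA genes, and the dashed line equal effects; red points lie above that line and blue points below it, as their choice by the sign of the difference fixes.

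Among gene lists, those of starch and most of those of the chloroplast had positive medians. The 38 tested leaf mesophyll markers were an exception, with a median of 0.01, and of −0.65 with the rRNA share as a covariate. Among these markers 1 was positive (2.63%) and 0 negative at an unadjusted edgeR p below 0.05. The ontology lists overlap in part, and the counts are of genes at an unadjusted edgeR p below 0.05. They are to be read against 5.37% positive and 7.12% negative among all genes tested, rRNA genes included. Of 22 starch synthesis genes, 10 were positive (45.5%) and 0 negative, with a median interaction of 0.51. The median of these genes in a library, as log2 of depth-scaled counts (CPM) less the mean over the 12 libraries, was 0.20, 0.20 and 0.32 in BCS24 drought, against −0.02, −0.24 and −0.22 in BCS24 control. It was −0.06, −0.21 and 0.16 in BCS8 drought, against 0.02, 0.05 and 0.03 in BCS8 control. The BCS24 groups were apart, and the BCS8 drought libraries lay on each side of their controls. With the rRNA share as a covariate the list median was 0.18. Its members with the smallest p-values outside the 24 genes, picked by p, were starch synthases HORVU7Hr1G025390 (0.71 ± 0.18) and HORVU2Hr1G106410 (0.62 ± 0.18), the chain-building enzymes of starch. With them stood HORVU4Hr1G007620, a phosphoglucomutase by its orthology number (0.75 ± 0.16), and HORVU3Hr1G023370, a subunit of the glucose-1-phosphate adenylyltransferase that commits glucose to starch (0.99 ± 0.31).

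Starch breakdown had 16 tested genes, of which 6 were positive (37.5%) and 1 negative, with a median of 0.42, and of 0.47 with the covariate. Beside DPE2, they included a beta-amylase that cuts maltose from starch (HORVU3Hr1G032160, 0.79 ± 0.18). The phosphoglucan, water dikinase that loosens the starch grain by phosphorylation (HORVU7Hr1G008070) had 0.59 ± 0.16, and the debranching enzyme isoamylase 3 (HORVU5Hr1G070160) had 0.94 ± 0.28. These 3 genes rose in BCS24, by 0.72 (edgeR adjusted p = 0.024), 0.57 (0.035) and 1.13 (0.023), and had −0.07, −0.02 and 0.19 in BCS8. They were picked by their interaction p, which favours a drought effect in 1 accession. Of the 16 genes, edgeR called 4 higher and 1 lower under drought in BCS24, against 1.40 and 1.25% of all genes, and 0 in BCS8. By the sign of the estimate alone, 19 starch synthesis genes were positive and 3 negative, and 13 starch breakdown genes were positive and 3 negative.

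Of 458 chloroplast stroma genes, 115 were positive (25.1%) and 13 negative, with a median of 0.30, and of 130 thylakoid genes 41 were positive (31.5%) and 2 negative, with a median of 0.42. In the Calvin cycle, 4 of 8 genes were positive and 0 negative, with a median of 0.61. Sedoheptulose-1,7-bisphosphatase (HORVU3Hr1G085270), an enzyme of carbon dioxide fixation, had 0.69 ± 0.25, and phosphoglycerate kinase (HORVU1Hr1G067300) had 0.79 ± 0.35. Chlorophyll synthesis had 5 of 26 positive and 0 negative, with a median of 0.35, and of 0.22 without BCS8 drought 3 and 0.23 without BCS8 control 3. They included the magnesium chelatase subunit HORVU5Hr1G111310 (0.98 ± 0.29) and chlorophyll synthase HORVU1Hr1G059890 (0.55 ± 0.18). With the rRNA share as a covariate the medians were 0.09 for the stroma, 0.05 for the thylakoid, 0.15 for the Calvin cycle and 0.06 for chlorophyll synthesis. For the stroma the library medians were 0.08, 0.12 and 0.12 in BCS24 drought, against −0.04, −0.27 and −0.25 in BCS24 control. They were 0.03, −0.09 and 0.14 in BCS8 drought, against 0.07, −0.03 and 0.13 in BCS8 control. BCS24 control replicates 2 and 3 had the lowest stroma medians of the 12 libraries and were among the 4 with the highest rRNA shares. BCS8 drought 1 and 2, also among these 4, had stroma medians of 0.03 and −0.09. That of BCS8 drought 2, which had the highest share, was the next lowest.

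**Figure D3:**
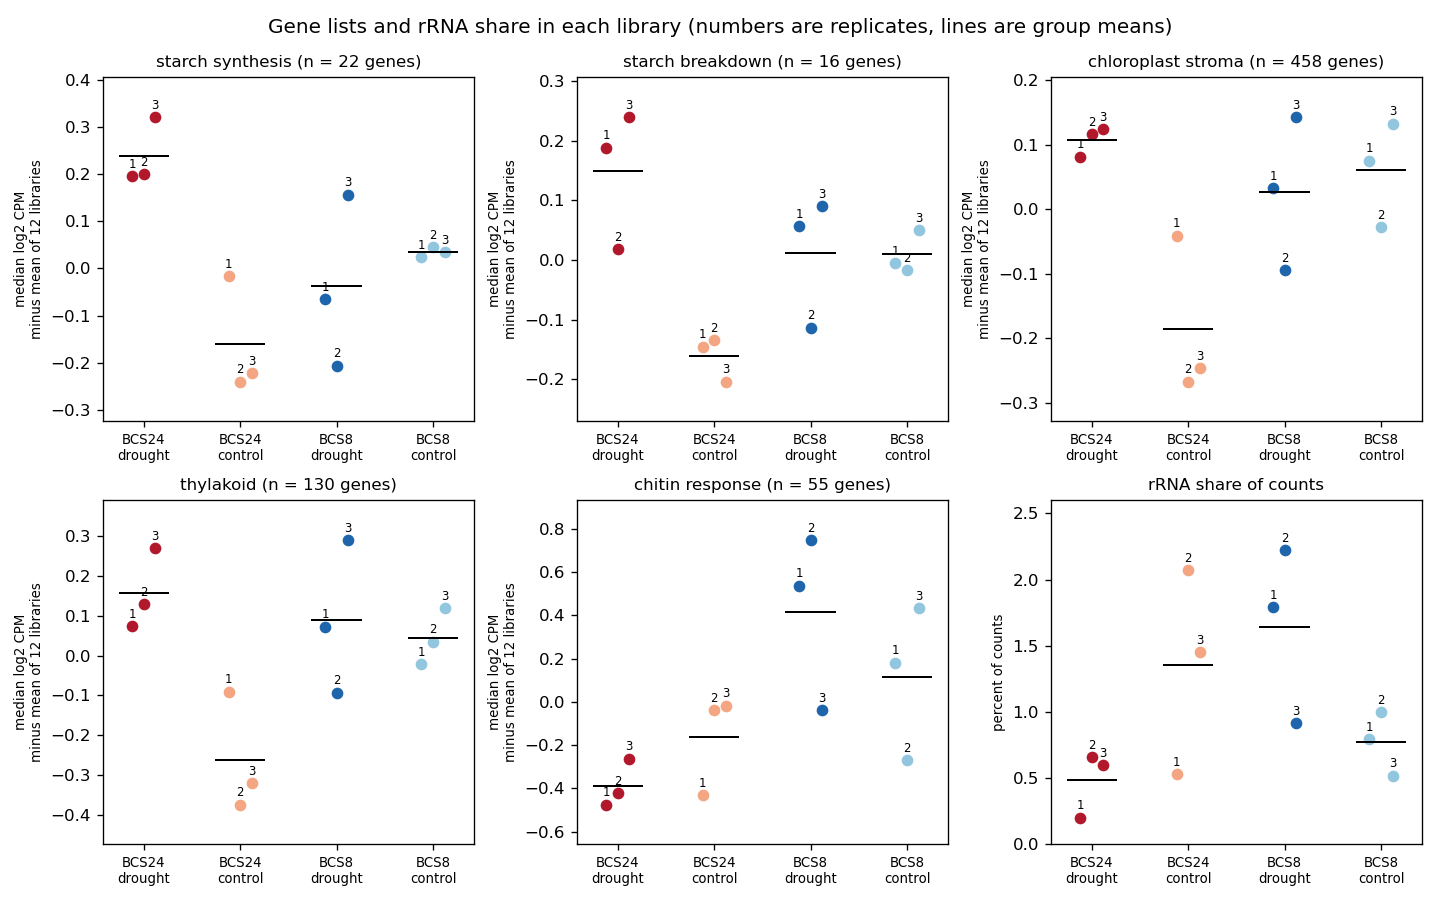
Median level of 5 gene lists in each library (log2 CPM less the mean over 12 libraries) and the share of counts in rRNA genes, by group; numbers are replicates and lines are means of 3. Starch synthesis and stroma genes are lowest in BCS24 control 2 and 3, where the rRNA share is 2.07 and 1.45%. In BCS8 drought 1 and 2 that share is 1.79 and 2.22%. There the medians are −0.06 and −0.21 for starch synthesis and 0.03 and −0.09 for the stroma. Those of BCS8 drought 2 are the next lowest in both lists.

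The rRNA genes themselves had the lowest median of the lists. Of 235 tested, 1 was positive and 175 negative (74.5%), with a median interaction of −2.13, and of −0.17 with their own share as a covariate. DESeq2 called 89 of them, all negative, against 2.40% of all genes called negative. These genes are near-identical copies, so the split of reads among them is uncertain, and libraries were selected by oligo(dT). Cytosolic ribosomal protein genes of the large subunit had a median of −0.02, with 5 of 135 positive and 1 negative, and the 95% interval lay within 1 of 0 for 112 of the 135.

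Next come lists of defence and signalling genes. Of 55 genes annotated to chitin, the fungal wall polymer that plants sense, 0 were positive and 9 negative (16.4%), with a median of −0.51, and of −0.30 without BCS8 drought 2. Their library medians were −0.47, −0.42 and −0.26 in BCS24 drought, against −0.43, −0.04 and −0.02 in BCS24 control. In BCS8 they were 0.54, 0.75 and −0.04 under drought, against 0.18, −0.27 and 0.43 in control. BCS24 control 1 lay among the drought libraries, and BCS8 drought 3 lay among the controls. Defence response had 11 of 445 positive and 44 negative (9.89%), with a median of −0.17, and serine/threonine protein kinases had 19 of 681 positive and 62 negative (9.10%), with a median of −0.12. These negative shares are near the 7.12% of all genes. Without BCS8 drought 2 the medians were −0.069 for defence and −0.051 for kinases, without BCS24 drought 3 they were −0.11 for defence and −0.078 for kinases, and without BCS8 drought 3 the kinase median was −0.18. With the rRNA share as a covariate the medians were positive, at 0.07 for chitin, 0.08 for defence and 0.13 for kinases. Phenylalanine ammonia-lyase HORVU2Hr1G089540, which opens the path to lignin and other phenolics, had −1.46 ± 0.41, and −1.78 with the covariate. Glutathione transferases, which couple toxic compounds to glutathione, had 3 of 62 positive and 12 negative (19.4%), with a median of −0.15, and of 0.01 with the covariate. Trehalose synthesis had 1 of 18 positive and 4 negative (22.2%), with a median of −0.12, and of −0.11 with the covariate. Of its members, picked by p, a synthase (HORVU5Hr1G033940) and a phosphatase (HORVU1Hr1G053770) each had −1.38 ± 0.43. Heat shock factor A2c (HORVU1Hr1G083420), a heat stress regulator, rose in BCS8 (1.19, edgeR adjusted p = 0.040), had −0.01 in BCS24 and an interaction of −1.20 ± 0.33.

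**Figure D4:**
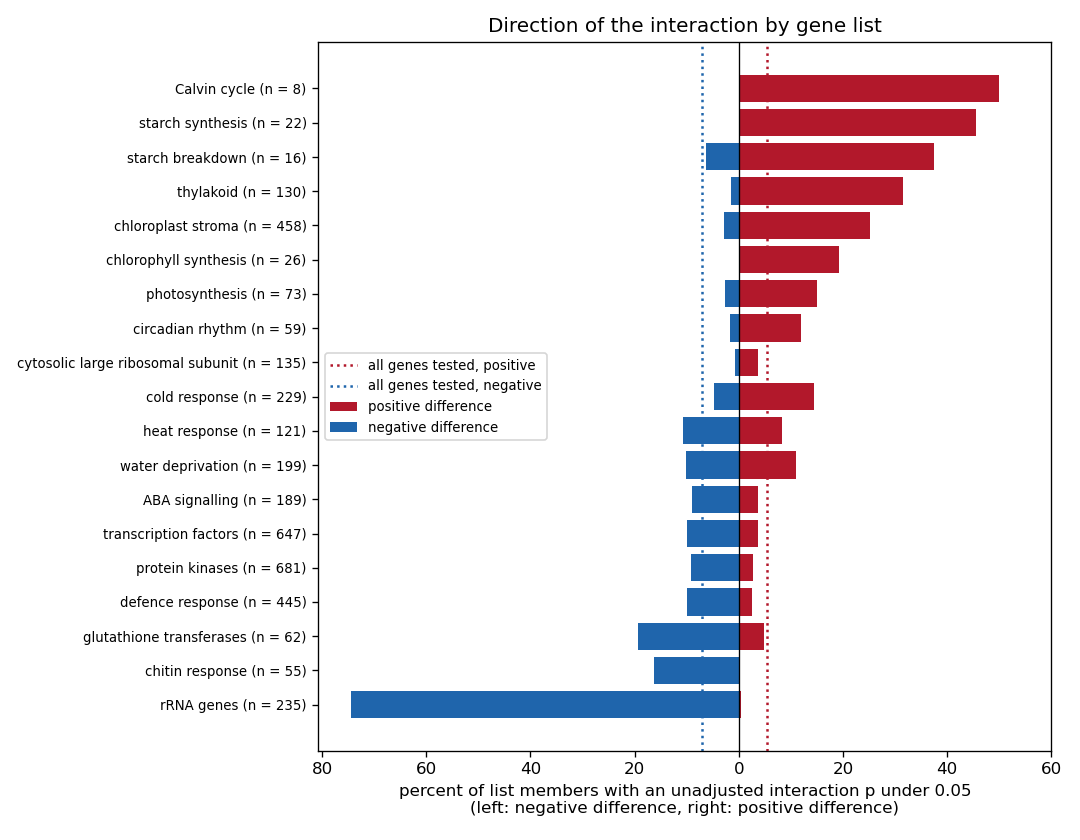
Percent of the members of 19 gene lists with an unadjusted interaction p below 0.05, to the right where the difference was positive and to the left where it was negative; dotted lines give the same for all genes tested, 5.37 and 7.12%. Starch, Calvin cycle and chloroplast lists extend to the right (45.5% for starch synthesis), and rRNA genes to the left (74.5%).

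Lists of drought and ABA genes are given next. Of 199 genes annotated to water deprivation, 22 were positive (11.1%) and 20 negative (10.1%), with a median of 0.00, and of 189 genes of ABA signalling 7 were positive and 17 negative (8.99%), with a median of −0.10. The 8 tested genes of ABA synthesis had a median of −0.13, and of 0.49 with the covariate, with 2 estimates positive and 6 negative. Of these 8 genes, 4 rose in each accession, all annotated as 9-cis-epoxycarotenoid dioxygenases. Among all genes tested, edgeR called 1.40% higher under drought in BCS24 and 0.998% in BCS8. HORVU5Hr1G008050 had 0.566, 1.07 and 1.02 FPKM in BCS24 drought, against 0.118, 0.285 and 0.208 FPKM in BCS24 control. In BCS8 it had 13.4, 4.31 and 8.35 FPKM under drought, against 0.4004, 0.544 and 0.381 FPKM in control. It rose in both accessions, by 2.21 ± 0.47 in BCS24 and by 4.34 ± 0.49 in BCS8, and its interaction was −2.13 ± 0.64, with a 95% interval of −3.54 to −0.72 (edgeR adjusted p = 0.225, DESeq2 0.0431). For HORVU5Hr1G044510 and HORVU5Hr1G054970 the interaction was 0.10 ± 0.90 and −0.12 ± 1.02, with 95% intervals of −1.90 to 2.095 and −2.39 to 2.15. These intervals are wide. The genes carry the same orthology number, which gives a shared function, and whether reads were split among them was not tested. The zeaxanthin epoxidase gene HORVU2Hr1G078840, which acts upstream of them, had 230, 248 and 208 FPKM in BCS24 drought, against 202, 217 and 192 FPKM in BCS24 control, and 157, 132 and 141 FPKM in BCS8 drought, against 186, 171 and 167 FPKM in BCS8 control. Its interaction was 0.53 ± 0.17.

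Several other drought genes, picked after their values were seen because they passed in both accessions, had intervals that included 0. The protein phosphatase 2C gene HORVU4Hr1G060370, a brake on ABA signalling, had −0.32 ± 0.59 (−1.63 to 0.99), and the ABA receptor gene HORVU4Hr1G055220, which fell in both, had −0.32 ± 0.66 (−1.78 to 1.14). For the 12-oxophytodienoate reductase gene HORVU2Hr1G004230, an enzyme type of jasmonate synthesis, the interaction was −0.55 ± 0.82 (−2.36 to 1.26). It was tighter for HvSnRK1gamma HORVU2Hr1G069060, a subunit of the kinase that senses low energy (−0.53 ± 0.27, −1.13 to 0.08), and for Cyclin-U1-1 HORVU2Hr1G107830, a cell cycle gene (−0.20 ± 0.30, −0.87 to 0.47). HORVU3Hr1G085760, described as the delta-1-pyrroline-5-carboxylate synthase that starts proline formation, and which passed in BCS8, had −0.48 ± 0.49 (−1.57 to 0.60).

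Genes of the methionine cycle, which supplies methyl groups, were picked in the same way because they rose in BCS24, a choice that favours positive interactions. HvMS, the methionine synthase gene HORVU5Hr1G006780, had 1607, 1552.5 and 1125 FPKM in BCS24 drought, against 516, 444 and 476 FPKM in BCS24 control, and 978, 748 and 972 FPKM in BCS8 drought, against 851, 1117 and 558 FPKM in BCS8 control. Its BCS8 groups overlapped, and the interaction was 1.55 ± 0.34 (0.80 to 2.30, edgeR adjusted p = 0.196). Adenosylhomocysteinase HORVU2Hr1G110120 had 1.21 ± 0.33 and S-adenosylmethionine synthase HORVU6Hr1G063490 had 1.07 ± 0.33. Of the lists, 1 of 6 genes of methionine synthesis and 1 of 20 of single-carbon metabolism were positive at an unadjusted p below 0.05, and 0 negative in each. The medians of these lists were 0.38 and 0.08, and −0.04 and −0.05 with the rRNA share as a covariate. EDTS5 (HORVU4Hr1G071300), described by ontology as an aminotransferase of lysine synthesis, had 1.19, 1.29 and 1.27 FPKM in BCS24 drought, against 1.45, 1.09 and 1.51 FPKM in BCS24 control, and 47.2, 41.2 and 7.67 FPKM in BCS8 drought, against 1.63, 2.14 and 3.44 FPKM in BCS8 control. It rose in BCS8 (3.76 ± 0.57, edgeR adjusted p = 0.026), had 0.01 ± 0.53 in BCS24, and its interaction was −3.75 ± 0.76 (−5.43 to −2.06).

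**Figure D5:**
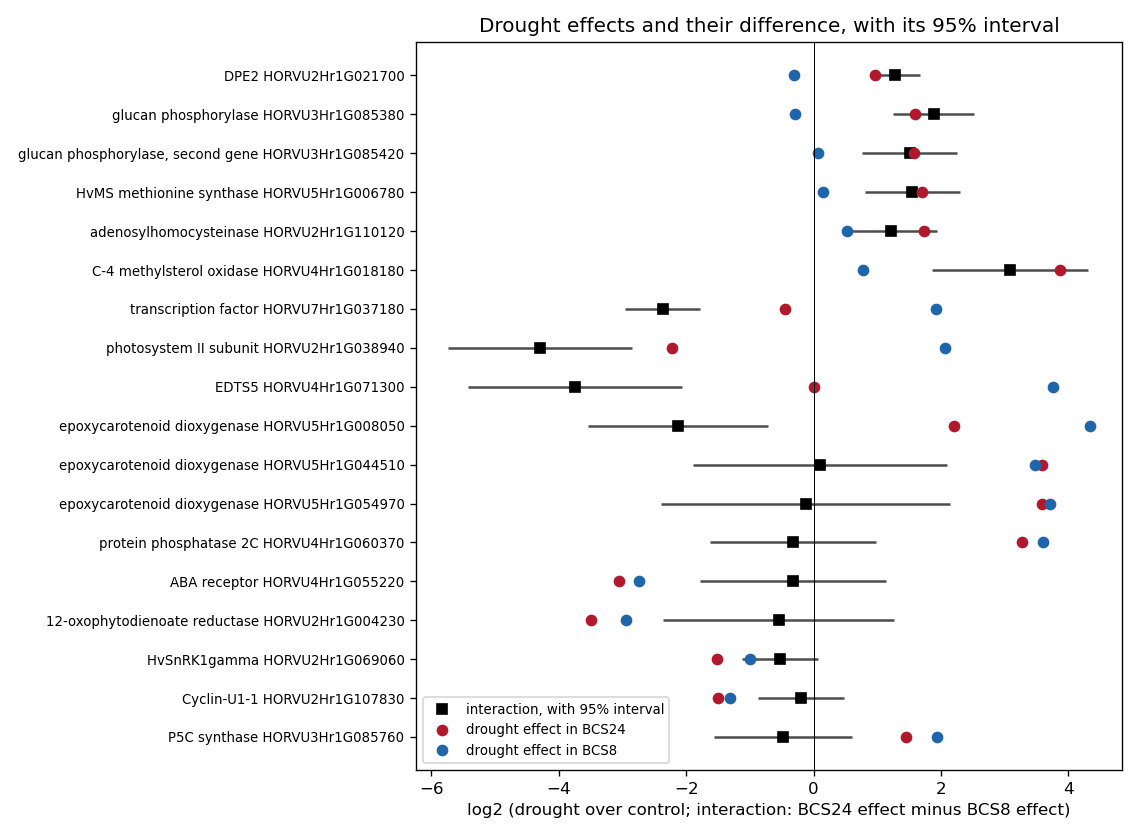
Drought effects in BCS24 (red) and in BCS8 (blue) and their difference, the interaction (black squares), with its 95% interval, all on the log2 scale, for 18 genes. Interval widths differ between genes, from 0.89 to 1.67 for DPE2 to −2.39 to 2.15 for the dioxygenase gene HORVU5Hr1G054970; the genes were chosen by their interaction p or their drought effects, so whether an interval includes 0 follows in part from the choice.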

How the data were processed

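Total leaf RNA was selected with oligo(dT) and made into dUTP-stranded paired-end libraries, per the labels' protocols. StringTie 2.1.6, DESeq2 and edgeR were used, per the submitters' processing notes, which give no role for each. No source used here gives the aligner or the genome build. The authors deposited raw counts and FPKM for 30157 genes and for 143596 transcripts, per the file headers, and gene coordinates are theirs. Only 29.2% of tested genes have a description and 88.5% an ontology term.

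Counts of the 17342 genes tested were scaled by TMM and fitted in edgeR 4.0.16 (R 4.3.3) with all 12 libraries and 1 coefficient per group (8 residual and 2.47 prior degrees of freedom). The interaction contrast was tested by the quasi-likelihood F test, with Benjamini-Hochberg adjustment over all genes tested and a threshold of 0.05. Errors are the log2 value over the square root of F, and 95% intervals use 10.47 degrees of freedom for every gene. For genes with libraries at 0 the p-value of the test need not match such an interval, which can be too narrow. Library medians use log2 CPM with a prior count of 2. Lists are ontology terms, gene types or words in descriptions, 48 of 52 with at least 5 tested genes. The members and lists were chosen with earlier results of these data known. As no gene passed, the rule for named genes took the 12 smallest p-values of each sign with a group mean of at least 5 FPKM. The alternatives were DESeq2 1.42.0, limma 3.58.1 on log2(FPKM + 1) and log2(FPKM + 0.1), voom quality weights, other scalings and filters, rRNA left out or as a covariate, replicate blocks and each library left out. The number of libraries, 3 per group, limits the precision.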

Additional observations from a re-analysis of the deposited data

Results flagged for a closer look

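The number of genes with at least 1 FPKM moved in opposite directions under drought in the accessions. It was 15626, 15306 and 15593 in BCS24 drought, against 15843, 16020 and 16068 in BCS24 control, and 16319, 16159 and 15975 in BCS8 drought, against 15829, 15771 and 15836 in BCS8 control. The drought libraries were all below their controls in BCS24 and all above them in BCS8, and the drought effect on this number in BCS24 minus that in BCS8 was −807.7 genes. The number includes rRNA genes. BCS8 drought 1 and 2 and BCS24 control 2 and 3 had the most genes at this level. They also had the highest rRNA shares, 1.79, 2.22, 2.07 and 1.45% of counts. The difference itself and the part of the rRNA share in it were not tested.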

How the results depend on the processing

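No named gene changed sign under an alternative that gave it a value, which the choice of these genes by p on the same counts favours. Of 599 values of named genes under the alternatives 524 kept their side of the threshold and 75 passed it. DESeq2 called 629 interaction genes (212 positive, 417 negative), 1803 drought genes in BCS24 and 1182 in BCS8, and voom quality weights 517 (242, 275), 3386 and 707. Limma on log2(FPKM + 1) called 14 (1 positive, 13 negative), 766 and 438, with medians of 0.38 for starch synthesis, 0.31 for starch breakdown, −0.15 for ABA signalling and −0.094 for water deprivation. With 0.1 in place of 1 it called 1 (negative) and 751 in BCS24, with medians of 0.33 for starch breakdown, −0.17 for ABA signalling and −0.087 for water deprivation. Quantile scaling called 4 (all 4 negative) and 447 in BCS8, moved the split at unadjusted p to 1507 positive and 923 negative and the median of all genes to 0.07, and gave −0.037 for defence and 0.0080 for ABA signalling. Upper-quartile scaling split the genes at unadjusted p into 1234 positive and 1032 negative, with a median of all genes of 0.056, −0.029 for ABA signalling and 0.064 for water deprivation. Without a filter the drought calls were 241 in BCS24 and 151 in BCS8, and ABA signalling had −0.053. At a minimum of 5 FPKM 1 negative gene passed, with 0.39 for starch synthesis, 0.51 for starch breakdown and −0.073 for defence. The rRNA share as a covariate left 15 and 29 drought calls in BCS24 and BCS8. It left 893 of 17342 interaction genes at unadjusted edgeR p below 0.05, against 2166 (12.5%) in the main fit. The lowest edgeR adjusted p was 0.91 with it, against 0.0604 in the main fit. Medians with it were 0.18 for starch synthesis, 0.095 for stroma, 0.049 for thylakoid, 0.15 for the Calvin cycle and 0.059 for chlorophyll synthesis. They were 0.071 for chitin, 0.075 for defence, 0.13 for kinases, −0.018 for ABA signalling and −0.17 for rRNA genes. The cause of these moves was not tested. Replicate numbers did not pair the libraries: drought libraries of the accessions deviated together (0.143 to 0.267), but other pairs of groups did not all do so. A replicate block over all libraries called 0 interaction genes, 305 drought genes in BCS24 and 156 in BCS8, and a block within each accession called 170 (6 positive, 164 negative, 97 of them rRNA genes), 263 and 231. Leaving out 1 library gave 0 to 31 interaction calls (0 to 3 positive, 0 to 28 negative), 19 to 674 drought calls in BCS24 and 0 to 320 in BCS8, and medians of −0.20 to −0.069 for defence, −0.72 to −0.30 for chitin, −0.18 to −0.051 for kinases, 0.22 to 0.42 for chlorophyll synthesis, −0.097 to −0.049 for ABA signalling and −0.066 to 0.052 for water deprivation. The 31 came without BCS8 drought 3, 4 without BCS8 control 3, and 1 each without BCS8 drought 1 (HORVU2Hr1G040310) and drought 2 (HORVU2Hr1G081960). The fewest calls in BCS24 came without BCS24 control 3 (19), control 2 (27), drought 1 (38) and drought 2 (67), and in BCS8 without BCS8 control 1 (0, with 1779 at unadjusted edgeR p below 0.05) and control 3 (33).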

Other observations

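Some genes switched between near 0 and a clear level within groups rather than with drought. With a library counted as on at 2 FPKM or more and off at 0.1 FPKM or less, and every library of the accession in one of these states, 9 genes switched among the BCS24 libraries and 13 among the BCS8 libraries. None followed the treatment, and each split at least 1 group. HORVU2Hr1G081960 had 0, 8.39 and 0 FPKM in BCS8 drought, against 19.2, 14.8 and 17.7 FPKM in BCS8 control, and 10.2 to 18.6 FPKM in the 6 BCS24 libraries. Its levels are set above beside those of HORVU2Hr1G081950, the kinase gene before it by identifier number. HORVU0Hr1G021960, annotated with the activity of a tRNA dihydrouridine synthase, was listed at 0 in the 3 BCS8 drought libraries and in BCS8 control 3, and at 2.83 and 3.01 FPKM in the other BCS8 controls. HORVU6Hr1G000660 was at 38.4 FPKM in BCS24 drought 1, 47.1 FPKM in BCS24 control 3 and 48.5 and 49.6 FPKM in BCS8 controls 1 and 2, and listed at 0 in the other 8 libraries. HORVU4Hr1G067490 was at 0.0301 FPKM in BCS8 drought 1 and at 15.4 to 30.6 FPKM in the other 11 libraries. Outside the switching genes, Elongator complex protein 1 (HORVU2Hr1G040310), part of a transcription and tRNA modification complex, had 9.56, 1.43 and 1.37 FPKM in BCS8 drought and 9.31 to 11.8 FPKM in the other libraries. These genes were picked after their values were seen.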
